A study of Homo sapiens with 2 samples.

Results

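The SLC25 genes encode the mitochondrial carriers, the proteins that move metabolites across the inner membrane of mitochondria. The members described here are all symbols in the count files made of SLC25A and a number, which gave 48 of 24462 symbols. The rule uses the name and no measured value, though it was set with earlier results of these data known. The rule leaves out family proteins that go by other symbols, such as the uncoupling proteins, and these are given further on. The study compared 1 library of A549 cells transfected with siRNAs against ADGRF4, an adhesion G protein-coupled receptor, with 1 library of A549 cells transfected with control siRNAs. A549 is an established human lung adenocarcinoma line, and both libraries were made from total RNA by sequencing the 3' ends of polyadenylated transcripts. The labels state neither the siRNA sequences nor the time after transfection, nor how many cultures each library holds.

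Most carriers are small membrane proteins made of repeated pairs of helices around a central binding site that opens in turn to either side of the inner membrane. They exchange or import nucleotides, phosphate, iron, carboxylates, amino acids, carnitine and cofactors, and so connect oxidative phosphorylation and mitochondrial biosynthesis with the cytosol. In lung epithelium, as elsewhere, ADP/ATP and phosphate carriers supply the substrates of ATP synthase.

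The ADGRF4 siRNA library held 9825320 counts and the control library 10396047. ADGRF4 had 1 count in the ADGRF4 siRNA library and 3 in the control library, so the silenced gene does not check the labels. The 5 epithelial markers were all read, 2 of them higher, 2 lower and 1 between at 1.5-fold, beside 21.1% higher and 22.3% lower of all compared symbols. In the ADGRF4 siRNA and control libraries KRT18 had 79367 and 58990 counts, KRT7 16919 and 7451, KRT8 7529 and 13756, KRT19 139 and 140, and EPCAM 38 and 75. Of markers of other cell types, CD3E had 0 counts in either library and PTPRC, PECAM1 and COL3A1 had at most 7. The collagen gene COL1A1 had 45 and 50 counts. With 1 library per treatment there is no replicate error and no test, and every difference below is between these 2 libraries. With size as the only criterion, a member is called higher or lower at 1.5-fold on the scale of log2(CPM + 1), where CPM is the counts-per-million value after TMM scaling of the libraries (trimmed mean of M values). The fold printed for a gene leaves out the added 1, and the range after each is its exact (Clopper-Pearson) 95% interval, which covers counting error only.

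The carrier genes divided in both directions. Of the 48 members, 36 had a mean of at least 30 counts over the 2 libraries and were compared. Among these, 8 were higher after ADGRF4 siRNA, 9 lower and 19 between. That is 22.2% higher and 25% lower, against 21.1% higher and 22.3% lower over all 11771 symbols compared, so the shares lay near the background. With total-count scaling, 8 carriers were higher and 12 lower, beside 16.1% and 27.7% of all symbols. The median log2 ratio of the carriers was -0.041, and that of all compared symbols was -0.016. At a minimum mean of 100 counts, the median was 0.23 over 27 carriers and 0.023 over all symbols. The SD of the log2 ratios was 0.87 for the carriers and 0.77 for all compared symbols. The carrier SD includes SLC25A5, whose log2 ratio of -2.74 lay farthest from the median. An SD rests heavily on such a value, so the larger SD does not describe the carriers as a whole.

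**Figure D1:**
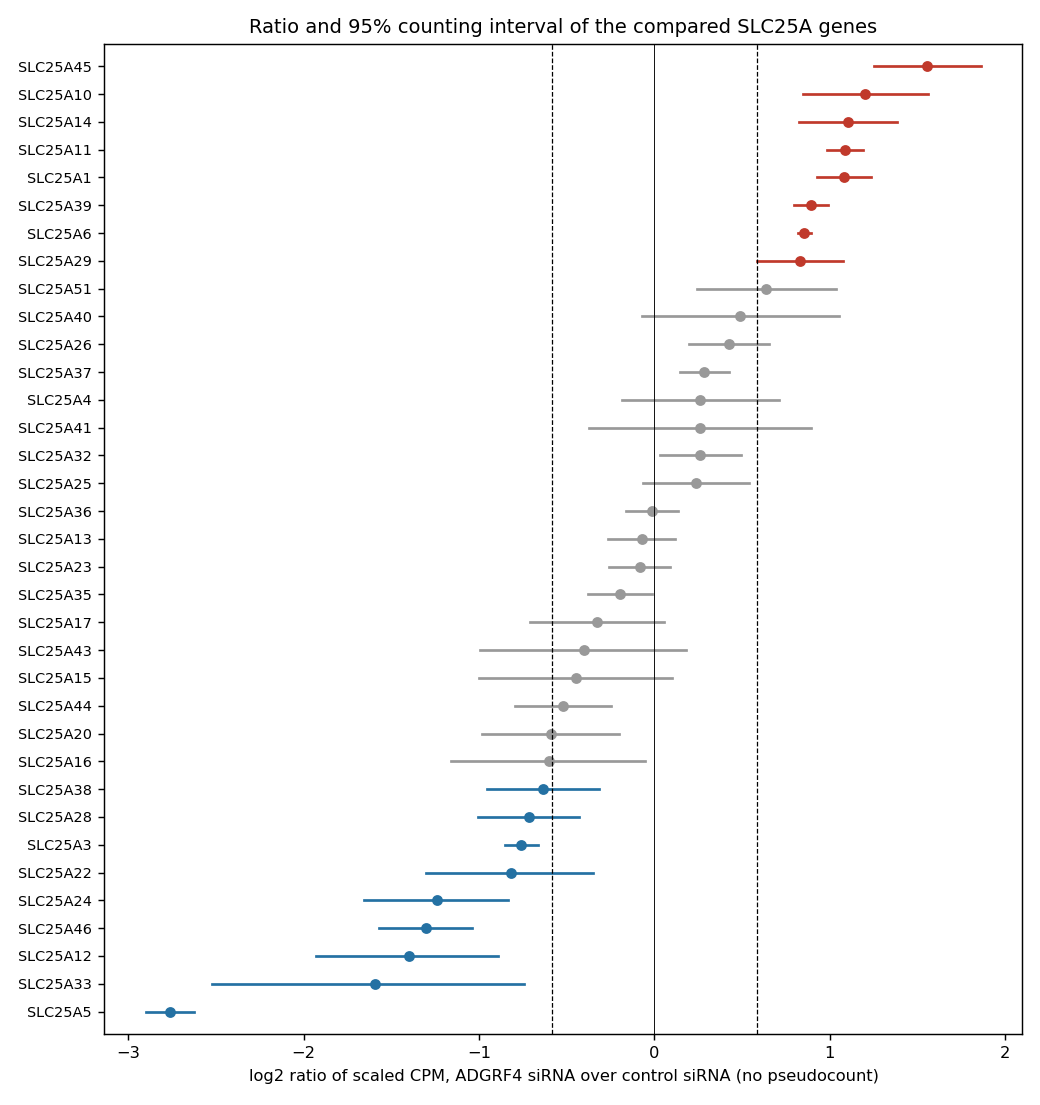
Each point is 1 of 35 of the 36 compared SLC25A genes, with its log2 ratio of scaled CPM, ADGRF4 siRNA over control siRNA, on the horizontal axis and its 95% counting interval as a line. Dashed lines mark 1.5-fold, red members were called higher, blue lower and grey between. SLC25A5 stands apart at the low end, 6.78-fold lower, and SLC25A45 is at the high end, 2.94-fold higher.

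All members together took 27970 counts, 0.285% of the ADGRF4 siRNA library, and 26502 counts, 0.255% of the control library. Because a transcript gives a read near its 3' end whatever its length, CPM is used here undivided by length, and levels of different genes are compared on this scale only. In the ADGRF4 siRNA library the order of scaled CPM was SLC25A6 (1514), SLC25A39 (246), SLC25A11 (238), SLC25A3 (146) and SLC25A1 (104). In the control library it was SLC25A6 (836), SLC25A5 (357), SLC25A3 (246), SLC25A39 (133) and SLC25A11 (112). SLC25A5 thus held rank 8 in the ADGRF4 siRNA library and rank 2 in the control library. Without SLC25A5 and SLC25A6, the members summed to 13347 counts in the ADGRF4 siRNA library and 13445 in the control library. These sums are unscaled, and the library sizes after TMM scaling were 9331651 (ADGRF4 siRNA) and 10946026 (control). Like counts therefore stand for a higher scaled CPM in the ADGRF4 siRNA library.

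**Figure D2:**
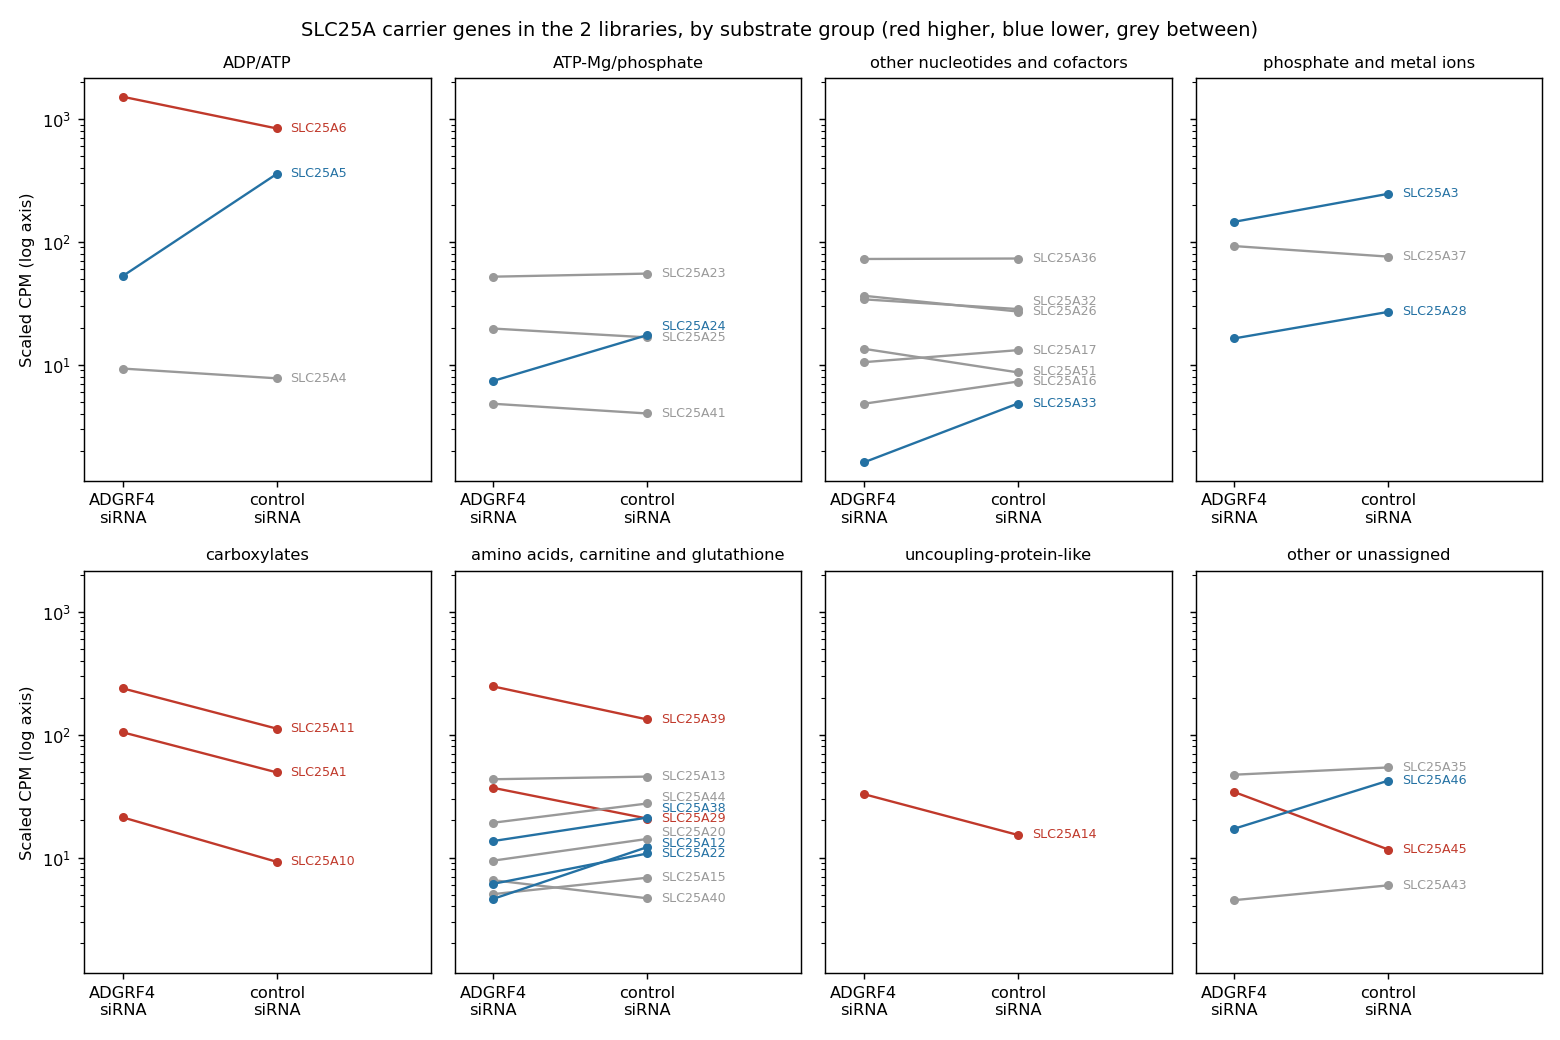
Scaled CPM of 35 of the 36 compared SLC25A genes on a log axis, with the ADGRF4 siRNA library on the left of each panel and the control siRNA library on the right, and a panel for each substrate group. Lines join the values of 1 gene. SLC25A5 and SLC25A6 run in opposite directions, and all 3 compared carboxylate carriers run the same way.

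The largest difference among the 36 compared members lay among the ADP/ATP carriers, which exchange cytosolic ADP for ATP made in the matrix. SLC25A5, the isoform known from proliferating cells, had 491 counts in the ADGRF4 siRNA library and 3903 in the control library. It was 6.78-fold lower (6.17 to 7.46), and its log2 ratio of -2.74 lay at percentile 0.34 of all compared symbols. SLC25A6, the broadly expressed isoform, had 14132 counts in the ADGRF4 siRNA library and 9154 in the control library, 1.81-fold higher (1.76 to 1.86). SLC25A4, the main isoform of heart and muscle, had 87 and 85 counts in the ADGRF4 siRNA and control libraries (1.20-fold, 0.880 to 1.64), an interval that includes no difference. SLC25A31, the testis isoform, had no count in either library.

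Within each library, which needs no scaling, SLC25A5 made up 3.34% of the ADP/ATP carrier counts after ADGRF4 siRNA (3.05 to 3.64) and 29.7% in the control (28.9 to 30.5). SLC25A6 made up 96.1% after ADGRF4 siRNA and 69.7% in the control, and SLC25A4 0.591% and 0.647%. The ratio of SLC25A5 to SLC25A6 counts was 0.0347 after ADGRF4 siRNA and 0.426 in the control, 12.3-fold lower. That ratio takes no account of 3' GC content, described below, which was 33.3% for SLC25A5 and 52% for SLC25A6. The scaled CPM of the group as a whole was 1576 after ADGRF4 siRNA and 1201 in the control.

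**Figure D3:**
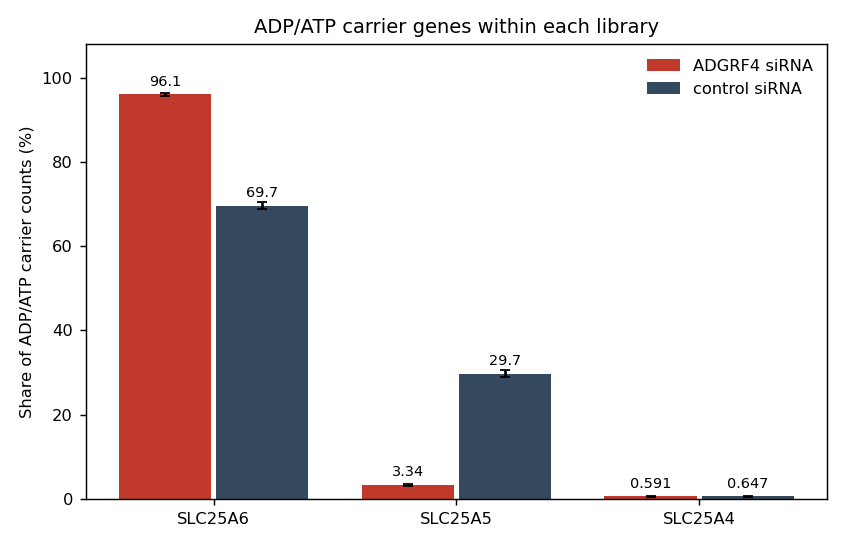
Bars give each gene's share of the ADP/ATP carrier counts within a library, with exact 95% intervals for counting error, ADGRF4 siRNA to the left of control siRNA. SLC25A5 has 3.34% after ADGRF4 siRNA and 29.7% in the control, and SLC25A6 has 96.1% and 69.7%.

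The counts of these genes can be shared with near copies. GENCODE names 9 pseudogenes of SLC25A5, 6 of SLC25A6 and 0 of SLC25A4. The coding sequences of SLC25A5 and SLC25A6 are 78.7% identical, whereas the last 300 bases of their longest transcripts are 43.2% identical, near the median of 44.1% over all 1128 pairs of members. SLC25A6 lies in the pseudoautosomal region of the sex chromosomes and stands on 2 rows of the files, which were summed. The rows had 6983 and 7149 counts in the ADGRF4 siRNA library and 4611 and 4543 in the control library, 1.78-fold and 1.85-fold higher. After centring on the base composition of the 3' end, described below, SLC25A5 kept a log2 ratio of -2.45, whereas SLC25A6 was at 0.49 and no longer reached 1.5-fold. What part mapping to such copies has in these counts was not tested.

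The promoters of the 3 expressed ADP/ATP carriers are shown because the 3 genes encode like proteins and differed in their ratios, and those of SLC25A46 and SLC25A11 because they lie at the low and high end of the other members with over 500 counts in the 2 libraries together, a choice made after their values were seen. Each is the 250 bases before the RefSeq start in GRCh38.p14, given 5' to 3' on the gene's strand, with capitals for matches on either strand to the 7 motifs searched.
SLC25A5, chrX:119468194-119468443, plus strand: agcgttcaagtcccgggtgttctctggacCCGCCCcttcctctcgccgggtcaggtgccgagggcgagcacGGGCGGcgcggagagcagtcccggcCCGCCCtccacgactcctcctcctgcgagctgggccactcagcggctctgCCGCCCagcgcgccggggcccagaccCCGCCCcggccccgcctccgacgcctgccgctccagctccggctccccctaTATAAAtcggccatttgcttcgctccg
SLC25A6, chrX:1392114-1392363, minus strand: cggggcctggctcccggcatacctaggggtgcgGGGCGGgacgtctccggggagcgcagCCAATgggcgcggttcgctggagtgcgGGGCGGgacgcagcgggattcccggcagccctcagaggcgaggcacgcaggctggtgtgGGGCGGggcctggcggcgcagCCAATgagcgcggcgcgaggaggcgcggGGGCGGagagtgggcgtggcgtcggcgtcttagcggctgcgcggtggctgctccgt
SLC25A4, chr4:185143016-185143265, plus strand: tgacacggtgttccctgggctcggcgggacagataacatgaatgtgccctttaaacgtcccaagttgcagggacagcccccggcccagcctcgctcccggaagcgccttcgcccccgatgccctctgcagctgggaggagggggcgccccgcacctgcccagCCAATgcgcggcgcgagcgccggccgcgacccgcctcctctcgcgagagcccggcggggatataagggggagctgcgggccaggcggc
SLC25A46, chr5:110738757-110739006, plus strand: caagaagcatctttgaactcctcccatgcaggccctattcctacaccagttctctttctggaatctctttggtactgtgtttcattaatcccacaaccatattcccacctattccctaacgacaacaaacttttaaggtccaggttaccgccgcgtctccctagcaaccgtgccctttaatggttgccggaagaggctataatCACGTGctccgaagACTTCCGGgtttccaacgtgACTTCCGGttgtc
SLC25A11, chr17:4940047-4940296, minus strand: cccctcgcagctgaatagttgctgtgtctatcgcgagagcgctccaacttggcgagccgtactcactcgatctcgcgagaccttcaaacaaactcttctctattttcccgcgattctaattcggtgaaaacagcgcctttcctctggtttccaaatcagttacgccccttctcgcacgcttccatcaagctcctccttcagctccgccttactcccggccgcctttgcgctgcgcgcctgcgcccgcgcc

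The motifs were GGGCGG for SP1, CCAAT for NF-Y, TATAAA for the TBP box, CACGTG for an E-box, TGACGTCA for CREB, CCGGAAGT for ETS factors and GCGCATGC for NRF1. The SLC25A5 stretch held 5 GGGCGG and 1 TATAAA, that of SLC25A6 4 GGGCGG and 2 CCAAT, and that of SLC25A4 1 CCAAT. SLC25A46 held 2 CCGGAAGT and 1 CACGTG, and SLC25A11 held 0 of the 7. RefSeq promoters of 300 bases were matched for 40 members, 50 windows in all. GGGCGG was in 66.0% of these windows, against 44.9% of all 35093 promoters, CCAAT in 44.0% against 34.6%, and CACGTG in 18.0% against 7.26%. CCGGAAGT was in 8% against 4.14%, TATAAA in 8% against 11.5%, TGACGTCA in 6% against 1.85%, and GCGCATGC in 0 windows against 3.05%. A match is a string of letters and not a site shown to be bound, and some windows share a gene.

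The ATP-Mg/phosphate carriers adjust the adenine nucleotide pool of the matrix, and most of them are regulated by calcium. Of the 4 compared, SLC25A24 was lower and the other 3 between, where 22.3% of all symbols were lower. SLC25A24 had 69 counts in the ADGRF4 siRNA library and 191 in the control library, 2.36-fold lower (1.78 to 3.15). SLC25A23 had 486 and 604 counts, SLC25A25 184 and 183, and SLC25A41 45 and 44 in the ADGRF4 siRNA and control libraries, and the intervals of all 3 include no difference. The ratio of SLC25A24 to SLC25A25 counts was 0.375 after ADGRF4 siRNA and 1.04 in the control. The last 300 bases of SLC25A25 overlap exons of SLC25A25-AS1 on the other strand, which had 148 and 84 counts, and the counting's use of strand is not stated.

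Carriers of other nucleotides and cofactors lay mostly between the limits. Of the 10, 8 were compared, 7 lay between and 1, SLC25A33, was lower. That is 0% higher and 12.5% lower, beside 21.1% and 22.3% of all symbols. SLC25A33, a pyrimidine nucleotide carrier, had 15 counts after ADGRF4 siRNA and 53 in the control, 3.01-fold lower (1.67 to 5.75). Its paralogue SLC25A36 had 677 and 801 counts, with a ratio of 0.991 (0.894 to 1.0996). SLC25A32, linked to folate and FAD, had 318 and 311 counts, and SLC25A26, the S-adenosylmethionine carrier, had 340 and 297. The peroxisomal member SLC25A17 had 98 and 144 counts, and SLC25A16 45 and 80. SLC25A16 was 1.52-fold lower (1.04 to 2.23) without the added 1, but inside the limit with it, and past the limit with total-count scaling or a pseudocount of 0.1. SLC25A51, needed for mitochondrial NAD, had 126 counts after ADGRF4 siRNA and 95 in the control. It was 1.56-fold higher (1.18 to 2.05) but at 0.583 on the scale with the added 1, just under the limit. Its last 300 bases overlap an exon of PAICSP1 on the other strand. Its coding sequence is 94.5% identical to that of SLC25A52, the closest pair of the family, and SLC25A52 had 3 and 1 counts. SLC25A42, a coenzyme A carrier, was under the count minimum with 7 counts after ADGRF4 siRNA and 42 in the control, 5.12-fold lower (2.28 to 13.5).

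Of the 3 phosphate and iron carriers, 2 were lower and 1 between, where 22.3% of all symbols were lower. SLC25A3, which imports phosphate for ATP synthase, had 1358 counts in the ADGRF4 siRNA library and 2693 in the control library, 1.69-fold lower (1.58 to 1.81). After centring on 3' base composition its log2 ratio was -0.44, inside the limit. SLC25A28, mitoferrin-2, had 153 and 295 counts, 1.64-fold lower (1.35 to 2.01). SLC25A37, mitoferrin-1, had 862 and 830 counts and lay between, 1.22-fold higher (1.11 to 1.34). The mitoferrins are 64.0% identical in coding sequence, and the ratio of SLC25A28 to SLC25A37 counts was 0.177 after ADGRF4 siRNA and 0.355 in the control.

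All 3 compared carboxylate carriers were higher after ADGRF4 siRNA, beside 21.1% of all symbols and 44.4% of the third of symbols with the highest 3' GC content, in which all 3 lie. SLC25A11, the oxoglutarate carrier of the malate-aspartate shuttle, had 2217 counts in the ADGRF4 siRNA library and 1223 in the control library, 2.13-fold higher (1.98 to 2.28). SLC25A1, which exports citrate for lipid synthesis, had 974 and 539 counts, 2.12-fold higher (1.91 to 2.36). SLC25A10, the dicarboxylate carrier, had 198 and 101 counts, 2.30-fold higher (1.80 to 2.95). Their 3' ends are GC-rich, at 53.3%, 69.0% and 65.0%, and with centring on 3' base composition the log2 ratios were 0.58, 0.23 and 0.28, none of which reaches 1.5-fold. The fourth carrier, SLC25A21, had no count after ADGRF4 siRNA and 5 in the control, and its last 300 bases overlap an exon of PAX9 on the other strand.

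Among the 10 compared carriers of amino acids, carnitine and glutathione, 2 were higher, 3 lower and 5 between. That is 20% higher and 30% lower, beside 21.1% and 22.3% of all symbols. SLC25A39, which imports glutathione, had 2299 counts in the ADGRF4 siRNA library and 1452 in the control library, 1.86-fold higher (1.74 to 1.98). SLC25A29, a carrier of basic amino acids, had 344 and 227 counts, 1.78-fold higher (1.499 to 2.11), and its last 300 bases overlap an exon of AL157871.1 on the other strand. Centring on 3' base composition left log2 ratios of 0.32 and 0.23. SLC25A40, the paralogue of SLC25A39, had 61 and 51 counts, an interval (0.951 to 2.08) that includes no difference.

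The lower members of this group carry glutamate, aspartate or glycine. SLC25A12, the aspartate/glutamate carrier aralar, had 43 counts after ADGRF4 siRNA and 133 in the control, 2.64-fold lower (1.86 to 3.81). Its paralogue SLC25A13, citrin, had 404 and 498 counts with a ratio of 0.952 (0.832 to 1.09), and the ratio of SLC25A12 to SLC25A13 counts was 0.106 after ADGRF4 siRNA and 0.267 in the control. SLC25A22, a glutamate carrier, had 57 and 118 counts, 1.76-fold lower (1.28 to 2.47). SLC25A38, which carries glycine for heme synthesis, had 127 and 231 counts, 1.55-fold lower (1.24 to 1.94), and was at -0.40 after centring. SLC25A20, the carnitine/acylcarnitine carrier, had 88 and 155 counts, and SLC25A44, which imports branched-chain amino acids, had 179 and 301. The ornithine carrier SLC25A15 had 47 and 75 counts. These last 3 lay between the limits, though SLC25A20 was 1.502-fold lower (1.15 to 1.97) without the added 1. SLC25A2 and SLC25A18 had at most 6 counts.

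Of the carriers that resemble uncoupling proteins, SLC25A14 alone was compared. It had 306 counts in the ADGRF4 siRNA library and 167 in the control library, 2.15-fold higher (1.77 to 2.61). With a 3' GC content of 43.3%, it kept a log2 ratio of 1.09 after centring. SLC25A30 had 11 and 40 counts, 3.10-fold lower (1.56 to 6.70), under the count minimum, and its last 300 bases overlap exons of TPT1-AS1. SLC25A27 had 6 and 11 counts.

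Among the 4 remaining members compared, 1 was higher, 1 lower and 2 between. That is 25% higher and 25% lower, beside 21.1% and 22.3% of all symbols. SLC25A45 had 318 counts in the ADGRF4 siRNA library and 127 in the control library, 2.94-fold higher (2.38 to 3.64), the highest ratio among the 36 compared. SLC25A46, an outer membrane protein that shapes the mitochondrial network, had 160 and 462 counts, 2.46-fold lower (2.05 to 2.97). Centring on 3' base composition left log2 ratios of 0.91 and -0.89. The last 300 bases of SLC25A45 overlap an exon of AP000944.1 on the other strand. SLC25A35 had 440 and 591 counts and SLC25A43 42 and 65. SLC25A34 had 13 and 10 counts, SLC25A53 had 0 and 2, and SLC25A47 and SLC25A48 had none. In all, 12 members were under the count minimum, and 6 of them had at most 3 counts in each library.

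Carriers with GC-rich 3' ends had the higher ratios, as did all symbols. Over the 36 compared members, Pearson's r between 3' GC content (last 300 bases) and the log2 ratio was 0.58 and Spearman's rho 0.58, against 0.44 and 0.46 over 11139 compared symbols. These describe genes of the same 2 libraries, which are not independent replicates. In the third of symbols with the highest 3' GC, 7 of 14 carriers were higher and 2 lower, beside 44.4% and 10.0% of all symbols there. In the third with the lowest, 0 of 8 carriers were higher and 4 lower, beside 5.42% and 32.3%. When each log2 ratio was centred on the median of symbols with like 3' GC, 5 carriers were higher and 7 lower, against 15.3% and 19.0% of symbols. The members past the limit without centring and still past it were SLC25A14 and SLC25A45 (higher) and SLC25A5, SLC25A12, SLC25A22, SLC25A24, SLC25A28, SLC25A33 and SLC25A46 (lower).

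**Figure D4:**
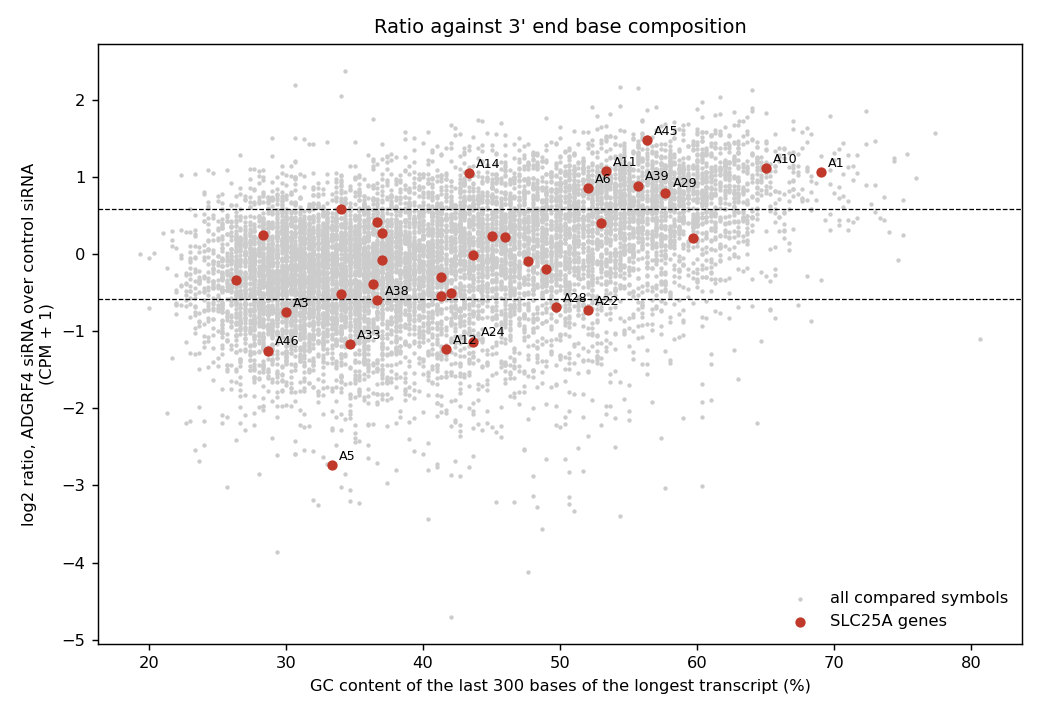
The log2 ratio on the scale of CPM + 1 is plotted against 3' GC content, taken over 300 bases at the end of each symbol's longest GENCODE transcript, in grey for 11139 compared symbols and in red for 35 of the 36 compared SLC25A genes. Called members are labelled by the end of their symbol (A5 for SLC25A5) and dashed lines mark 1.5-fold. The carriers called higher lie at 43.3% GC or above, and SLC25A5, at 33.3% GC, is the lowest of the carriers.

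Genes that work beside the carriers were examined as a list of 37, of which 34 were compared. Of these, 10 were higher after ADGRF4 siRNA, 4 lower and 20 between, which is 29.4% and 11.8% beside the 21.1% and 22.3% of all symbols. Total-count scaling gave 7 higher and 6 lower, beside 16.1% and 27.7% of all symbols. The partner median log2 ratio was then -0.064 in place of 0.084, and that of all symbols -0.16 in place of -0.016. Centring on 3' base composition gave 8 higher and 4 lower, beside 15.3% and 19.0% of symbols. SFXN1, SFXN4, GOT2 and CPT1C were then inside the limit and MPC1 and SFXN5 past it. Family proteins with other symbols gave 2 higher, UCP2 and MTCH1, with UCP3 and MTCH2 between. UCP2, an uncoupling protein homologue, had 580 counts in the ADGRF4 siRNA library and 310 in the control library, 2.19-fold higher (1.91 to 2.53). VDAC1, the outer membrane channel through which carrier substrates pass, had 971 and 2475 counts, 2.17-fold lower (2.02 to 2.34), whereas VDAC2 and VDAC3 lay between.

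Of the 8 enzymes beside the carnitine and citrate carriers, 4 were higher, 1 lower and 3 between. That is 50% higher and 12.5% lower, beside 21.1% and 22.3% of all symbols. CRAT, carnitine acetyltransferase, had 1069 counts in the ADGRF4 siRNA library and 443 in the control library, 2.83-fold higher (2.53 to 3.17). CPT1B, which makes acylcarnitine at the outer membrane, had 561 and 270 counts, 2.44-fold higher (2.10 to 2.83), and CPT1A and CPT1C were 1.56-fold and 1.78-fold higher, though CPT1C was at a log2 ratio of 0.21 after centring. A separate symbol named after CHKB and CPT1B, CHKB-CPT1B, was at a log2 ratio of 1.15. Whether it shares reads with CPT1B was not tested. CPT2, which uses acylcarnitine in the matrix, had 145 and 321 counts, 1.89-fold lower (1.55 to 2.31). SLC25A20, which carries acylcarnitine into the matrix for CPT2, was at a log2 ratio of -0.54. Citrate synthase (CS) and ACLY, which act before and after citrate export, had log2 ratios of 0.21 and 0.078, beside the 1.07 of SLC25A1. After centring on 3' base composition, CS was at 0.24, ACLY at 0.28 and SLC25A1 at 0.23, so SLC25A1 no longer stood apart.

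Of the 14 genes compared for other inner membrane transport proteins, 3 were higher, 2 lower and 9 between. That is 21.4% higher and 14.3% lower, beside 21.1% and 22.3% of all symbols. MCU, the calcium uniporter pore, had 148 counts in the ADGRF4 siRNA library and 506 in the control library, 2.91-fold lower (2.42 to 3.52), and SFXN1, a serine transporter, was 1.76-fold lower (1.51 to 2.07), or at a log2 ratio of -0.52 after centring, inside the limit. ABCB8, a transporter of the ABC family, had 94 and 44 counts, 2.51-fold higher (1.73 to 3.67). In the malate-aspartate shuttle the enzymes GOT1, MDH1 and MDH2 lay between, at log2 ratios of 0.098, 0.031 and 0.089, and GOT2 was 1.60-fold higher (1.52 to 1.69), or at 0.53 after centring, inside the limit. Of the carriers of the same shuttle, SLC25A11 was 2.13-fold higher, or at a log2 ratio of 0.58 after centring, also inside the limit. SLC25A12 was 2.64-fold lower and stayed past the limit after centring, at -1.15, and SLC25A13 lay between.

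**Figure D5:**
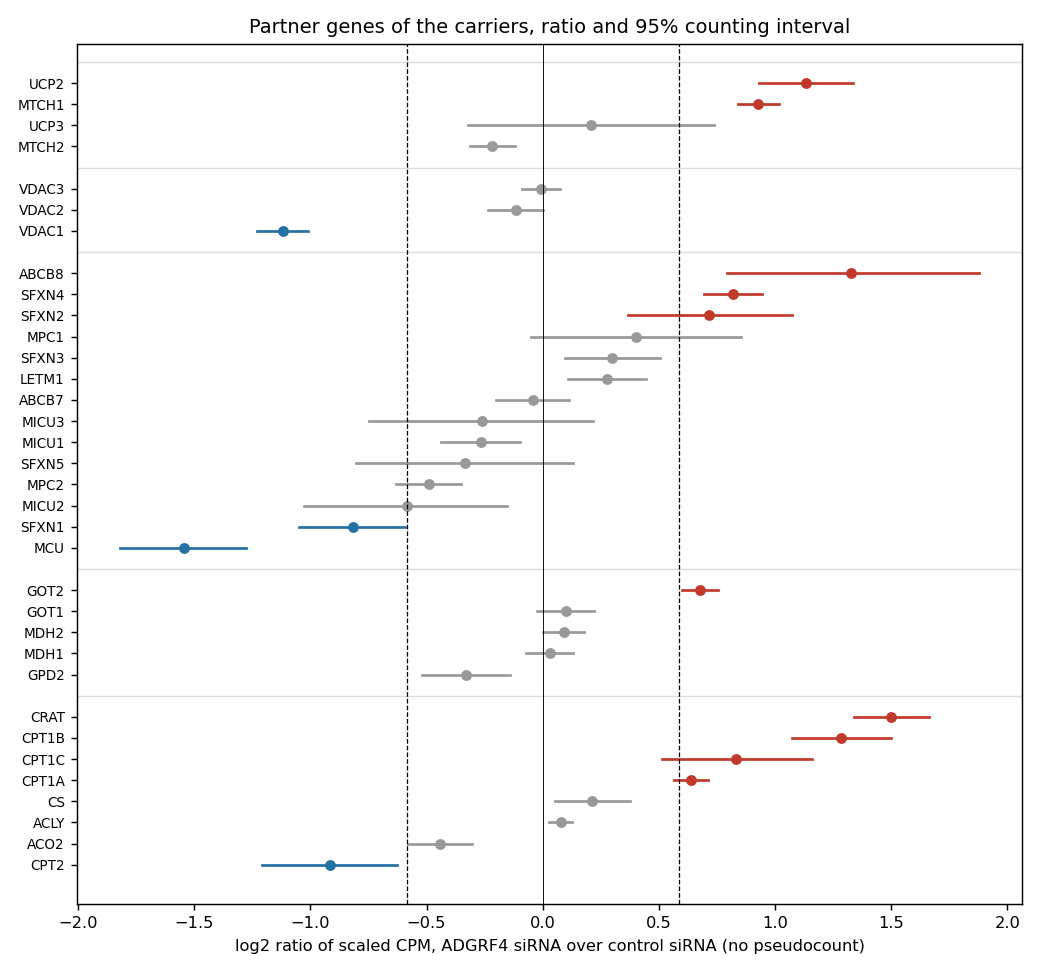
Log2 ratios of scaled CPM, ADGRF4 siRNA over control siRNA, with 95% counting intervals, for the 34 compared partner genes, in blocks from top to bottom of family proteins with other symbols, outer membrane channels, other inner membrane transport, shuttle enzymes, and enzymes beside the carnitine and citrate carriers. Dashed lines mark 1.5-fold. MCU is lowest at 2.91-fold lower and CRAT highest at 2.83-fold higher.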

How the data were processed

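Both libraries came from Trizol total RNA and the Lexogen QuantSeq 3' end kit, per the labels' protocols. The authors deposited raw counts per gene symbol, without normalization. The submitters' processing notes name Bowtie2, edgeR and build hg19. Versions, annotation, strand and multi-mapping settings were not given in these sources. Library totals were 9825320 (ADGRF4 siRNA) and 10396047 (control). The 25737 rows hold 24462 symbols, and rows of 286 repeated symbols were summed; every row names a gene.

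Counts were scaled by TMM in edgeR 4.0.16 under R 4.3.3. A symbol was compared when its mean reached 30 counts, with a pseudocount of 1 CPM, which understates the change of low genes. No test was made, as each group has 1 library. PCR reads without molecular identifiers are not independent molecules, so intervals cover counting error only. The last 300 bases of the longest GENCODE 29 transcript gave 3' GC content for 94.6% of compared symbols and all 36 compared carriers, and centring used 20 bins; the longest transcript may not be the one read. Members, lists and the rule for named genes were chosen with earlier results of these data known: the text gives the 8 partner genes with the largest differences, 4 in each direction, and all members except 1, whose values are not reported here, while other partner genes were named after their values were seen. Protein sequences were not used here; coding sequences were aligned with Biopython 1.88 instead, a step added after the data were seen. Coordinates are printed only for RefSeq promoters on GRCh38.p14. The ratio calculation was tested on simulated data. Other software was scipy 1.17.1 and pandas 2.3.3 in Python 3.11.15, and DESeq2 1.42.0 for an alternative.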

Additional observations from a re-analysis of the deposited data

How the results depend on the processing

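Each of the 17 members called at 1.5-fold kept its direction under all alternatives in which it could be compared, and 0 reversed. With total-count scaling, which moves the median of all symbols to -0.16, the carrier median was -0.19 and the partner median -0.064. The 12 carriers then lower stood beside 27.7% of all symbols. At a count minimum of 100, 27 carriers were compared and their median was 0.23, beside 0.023 for all symbols. With a pseudocount of 5, which damps low genes, 5 carriers were lower, and the share of all symbols lower was 16.5% in place of 22.3%. SLC25A22, SLC25A28, SLC25A33 and SLC25A38 were then inside the limit. Centring on 3' GC gave 5 carriers higher, beside 15.3% of symbols. SLC25A1, SLC25A3, SLC25A6, SLC25A10, SLC25A11, SLC25A29, SLC25A38 and SLC25A39 were then inside the limit, and SLC25A32, SLC25A40 and SLC25A51 were past it. At 2-fold instead of 1.5-fold, 5 carriers were higher and 5 lower, with 7.84% and 10.4% of all symbols, and 4 partner genes were higher and 2 lower. DESeq2 size factors, upper-quartile scaling, a pseudocount of 0.1, a minimum of 10 counts or none, and rows kept apart left each carrier and partner count within 1.5 times its value. SLC25A14 and SLC25A45 (higher) and SLC25A5, SLC25A12, SLC25A24 and SLC25A46 (lower) were past 1.5-fold under every alternative that included them. No paired analysis was possible because each treatment has 1 library. Depth limits the members under the count minimum: with 3 counts or fewer in each library, no difference was detectable.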

Other observations

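Antisense transcripts and pseudogenes named after carrier genes had rows of their own. SLC25A25-AS1 had 148 counts in the ADGRF4 siRNA library and 84 in the control library, beside 184 and 183 for SLC25A25. SLC25A21-AS1 had 59 counts in the ADGRF4 siRNA library and 30 in the control library, while SLC25A21 itself had 0 and 5. SLC25A5-AS1 had 25 and 28 counts in the ADGRF4 siRNA and control libraries, beside 491 and 3903 for SLC25A5. SLC25A30-AS1 had 0 and 1 counts. The rows of the pseudogenes SLC25A3P1 and SLC25A51P1 held 0 counts in both libraries.

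Close paralogues were compared within each library in 12 pairs, which does not depend on the scaling between libraries. The ratio of SLC25A12 to SLC25A13 counts was 2.51-fold lower after ADGRF4 siRNA, and that of SLC25A33 to SLC25A36 2.99-fold lower. The ratio of SLC25A14 to SLC25A30 counts was 27.8 after ADGRF4 siRNA and 4.18 in the control, and that of SLC25A39 to SLC25A40 was 37.7 and 28.5. SLC25A30 was under the count minimum, with 11 counts after ADGRF4 siRNA and 40 in the control, though its pair is in the tally below. In 11 pairs both genes had over 3 counts in each library. The gene with fewer counts in the control library had the lower ratio in 8 of these and the higher ratio in 3, which were SLC25A5 with SLC25A4, SLC25A23 with SLC25A25 and SLC25A24 with SLC25A25. Counting intervals overlap within some pairs, such as SLC25A39 (1.74 to 1.98) with SLC25A40 (0.951 to 2.08). The tally takes no account of 3' GC content. Centring put the log2 ratio of SLC25A39 (0.32) below that of SLC25A40 (0.61), whereas SLC25A12 (-1.15) stayed below SLC25A13 (0.13). Some pairs share a gene, the pairs were chosen after the counts were seen, and no test was made.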
